A study of Mus musculus with 5 samples.

Results

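A mature αβ T cell carries 1 TRB chain paired with a TRA chain, and some T cells carry 2 TRA chains. The T cells described here had exactly 1 productive TRB contig and exactly 2 productive TRA contigs (2-TRA cells), and they were set against cells with exactly 1 of each (1-TRA cells). Both kinds were drawn from 10192 lymph node cells with at least 200 genes, at most 10% mitochondrial UMIs and a clear hashtag, meaning at least 10 UMIs of the top hashtag and at least 3 times those of the second. A UMI, or unique molecular identifier, marks 1 captured RNA molecule, and a contig is an assembled receptor transcript, called productive when its reading frame is open. There were 4657 1-TRA cells and 572 2-TRA cells, so that 2-TRA cells made up 10.9% of the 5229 cells compared (95% exact interval 10.1 to 11.8, counting error only).

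The cells were CD44-high CD4+ and CD8+ T cells sorted from mediastinal lymph nodes, which drain the heart, of C57BL/6 mice. Mice of 2, 6, 12 and 18 months were pooled into 1 droplet library after staining with 8 hashtag antibodies. The labels do not pair hashtags with ages or say whether a hashtag marks 1 mouse or several, so each hashtag served as a block that held both kinds of cell, and p-values measure only the spread between hashtags. No treatment or allele beyond the strain and the age range is named, and the sort selects for CD44, a marker of antigen-experienced cells. Median UMIs per cell ran from 3625 to 5063 over the hashtags.

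The TRB locus shuts down rearrangement on the other allele once 1 chain works, whereas both TRA alleles of a developing thymocyte rearrange at once. TRA rearrangement also goes on in rounds: a V segment joins a J segment near the 5′ end of the J cluster first, and later rounds delete that join and use J segments nearer to the constant region. Because both alleles pass through these rounds over the same time, the J segments of a cell's 2 alleles are known to lie near each other, and a second join that is in frame leaves a cell with 2 TRA chains.

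The junction sequences of the 5 largest clones in which at least 2 cells carried the same 2 TRA chains show what such cells look like. A clone is defined here as cells of 1 hashtag with the same TRB V segment, J segment and CDR3 nucleotide sequence, CDR3 being the junction that touches the antigenic peptide. The sequences are CDR3 nucleotides from the deposited contigs, 5′ to 3′, and capitals mark a run of at least 12 bases shared at the 3′ end by both TRA chains.

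Clone 3 TRB: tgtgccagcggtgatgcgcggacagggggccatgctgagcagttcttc
Clone 3 TRA 1 (TRAV8N-2, TRAJ9): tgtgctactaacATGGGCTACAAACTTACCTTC
Clone 3 TRA 2 (TRAV15D-2-DV6D-2, TRAJ9): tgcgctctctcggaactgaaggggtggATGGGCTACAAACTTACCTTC
Clone 4 TRB: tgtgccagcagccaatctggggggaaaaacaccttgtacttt
Clone 4 TRA 1 (TRAV15-2-DV6-2, TRAJ39): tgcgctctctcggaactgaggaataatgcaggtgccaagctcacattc
Clone 4 TRA 2 (TRAV7-3, TRAJ42): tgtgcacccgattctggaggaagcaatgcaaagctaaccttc
Clone 1 TRB: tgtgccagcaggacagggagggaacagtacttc
Clone 1 TRA 1 (TRAV13-1, TRAJ13): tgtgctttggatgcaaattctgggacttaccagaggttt
Clone 1 TRA 2 (TRAV9D-2, TRAJ6): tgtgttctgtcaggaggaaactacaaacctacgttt
Clone 2 TRB: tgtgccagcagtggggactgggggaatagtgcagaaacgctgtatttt
Clone 2 TRA 1 (TRAV14D-1, TRAJ9): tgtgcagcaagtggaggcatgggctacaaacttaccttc
Clone 2 TRA 2 (TRAV4-2, TRAJ27): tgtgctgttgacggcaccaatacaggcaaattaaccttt
Clone 5 TRB: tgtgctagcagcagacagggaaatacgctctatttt
Clone 5 TRA 1 (TRAV13N-3, TRAJ33): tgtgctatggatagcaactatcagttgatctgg
Clone 5 TRA 2 (TRAV12-2, TRAJ31): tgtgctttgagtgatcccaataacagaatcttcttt

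Clone 3 had 11 cells in Hashtag8, all more-Cd8, that is with more Cd8a plus Cd8b1 UMIs than Cd4 UMIs (more-Cd4 cells have the reverse). Of its 10 cells with a TRA contig, 7 carried both TRA chains, 3 only the first and 0 only the second. Both chains used TRAJ9 (GRCm38 chr14:54209393-54209450, plus strand, a J segment of the Tra locus), so their last 21 CDR3 bases were identical while their V segments differed. Clone 4 had 7 cells in Hashtag4, of which 5 carried both chains, 1 only the first and 1 only the second. Its chains used TRAJ39 (chr14:54179962-54180024) and TRAJ42 (chr14:54175773-54175836), which are 3 segment numbers apart. Clone 1 was the largest, with 36 more-Cd8 cells in Hashtag7. Only 3 of its cells carried both chains, 30 carried only the first and 2 only the second, so most of its cells counted as 1-TRA cells. Its TRAJ13 and TRAJ6 are 7 segment numbers apart. Clone 2 had 12 cells in Hashtag7, 11 of them more-Cd8, of which 4 carried both chains, 6 only the first and 1 only the second. Its TRAJ9 and TRAJ27 (chr14:54192303-54192361) are 18 numbers apart, the widest gap among the 5 clones. Clone 5 had 7 cells in Hashtag5, of which 4 carried both chains, 2 only the first and 1 only the second, and its TRAJ33 and TRAJ31 are 2 numbers apart. Its cells shared no lineage call: 2 were more-Cd4, 2 more-Cd8 and 3 neither.

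Other chain counts were seen as well. A TRB contig with no TRA contig was found in 1182 cells, and 115 cells had 2 of each chain. Median UMIs per cell were 2017 with 0 TRA contigs, 3886 with 1, 4440 with 2, and 5042 in cells with 2 of each. UMIs of both Cd4 and Cd8a or Cd8b1, which a mature T cell should not combine, were found in 3.35% of 1-TRA cells, 5.24% of 2-TRA cells and 17.4% of the cells with 2 of each chain. No doublet caller was run; the hashtag ratio and the limit of 1 TRB contig remove part of the doublets. A diploid cell has 2 Tra alleles, and more than 2 TRA contigs, counting non-productive ones, were found in 7.87% of 2-TRA cells (45 cells) and 1.07% of 1-TRA cells (50 cells). These shares are not alike, since a 2-TRA cell passes 2 contigs with 1 non-productive contig and a 1-TRA cell needs 2. At least 1 non-productive TRA contig was found in 7.87% of 2-TRA cells and 27.0% of 1-TRA cells.

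T cell markers were high in both kinds of cell. Summed CPM of Cd3e, Cd3d, Cd3g, Trac, Cd28 and Lck lay between 5019 and 6540 per hashtag in more-Cd4 1-TRA cells and between 4546 and 6373 in more-Cd4 2-TRA cells. In more-Cd8 cells the ranges were 3785 to 4856 and 3488 to 4944. Markers of other cells were also detected: B cell markers (6 genes, none at 0) had medians of 676 and 1018 CPM in more-Cd4 and of 421 and 274 CPM in more-Cd8 1-TRA and 2-TRA cells, with single hashtags reaching 3242 CPM. Myeloid markers (6 genes) had medians of 228 and 138 CPM in more-Cd4 and of 174 and 186 CPM in more-Cd8 cells. Haemoglobin genes were at or near 0, with no hashtag above 7.80 CPM.

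The frequency of 2-TRA cells did not differ detectably between the lineages. They made up 10.9% of 1540 more-Cd4 cells (95% interval 9.40 to 12.6) and 11.3% of 2326 more-Cd8 cells (10.0 to 12.6). In more-Cd4 cells the 8 hashtags ranged from 7.69% to 16.2% with a median of 10.8%, and in more-Cd8 cells from 5.71% to 16.7% with a median of 10.6%. The share was higher in more-Cd8 cells in 4 hashtags and lower in 4, with differences from -4.34 to 5.25 percentage points (median difference -0.16, exact sign-flip permutation over hashtags, two-sided, p = 0.81, adjusted p = 0.91 over 9 tests). Over all lineages the hashtags ran from 7.96% in Hashtag6 (5.84 to 10.5) to 14.6% in Hashtag4 (11.7 to 17.9). These are the lowest and highest of the 8 hashtags, their intervals cover counting error only, and a difference between hashtags was not tested.

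**Figure D1:**
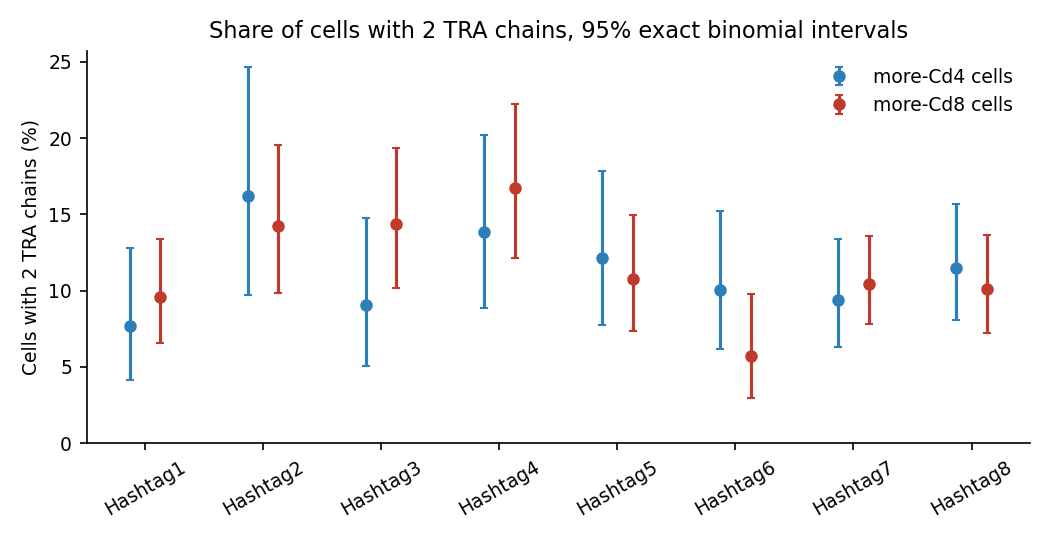
Share of 2-TRA cells among 1-TRA and 2-TRA cells (y axis, percent) in each hashtag (x axis) for more-Cd4 cells (blue) and more-Cd8 cells (red); bars are 95% exact binomial intervals and cover counting error only. The 2 lineages swap places from hashtag to hashtag, with 4 hashtags higher in each.

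The share of 2-TRA cells was higher in cells with more UMIs. It was 8.65% (95% interval 7.01 to 10.5) in cells of at most 2000 UMIs, 10.0% (8.62 to 11.6) up to 4000, 11.5% (10.1 to 13) up to 8000, and 14.8% (12.3 to 17.6) above 8000. By UMIs of the TRB contig it was 9.17% at 1 to 2 UMIs, 11.5% at 3 to 5, 9.44% at 6 to 10 and 12.0% at over 10, which is no steady order. By clone size the share was 11.8% (10.8 to 12.9) in TRB sequences seen in 1 cell, 10.5% (8.64 to 12.5) in clones of 2 to 4 cells and 6.90% (5.06 to 9.15) in clones of 5 or more. These shares pool hashtags of different depth and clonality, and cells of a clone are not independent, so no test was made.

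The chains of 2-TRA cells lay near each other in the J cluster. The median distance between the TRAJ segments of a cell's 2 chains was 8 segment numbers, or 8.19 kb between segment starts in GENCODE M21, whereas chains taken from different cells of the same hashtag lay a median of 14 segments, or 14.7 kb, apart (43272 pairs). In 36.9% of 2-TRA cells the segments were within 5 of each other, against 21.2% of pairs between cells, and in 10.5% they were over 20 apart, against 32.5%. Across the 2-TRA cells Spearman's rho was 0.56 between the TRAJ numbers of the 2 chains and 0.18 between the positions of their TRAV segments. Cells of a clone share their chains, and with 1 cell per clone and chain class (521 cells) the median distance was again 8 and rho 0.56. These values describe the cells and carry no test.

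**Figure D2:**
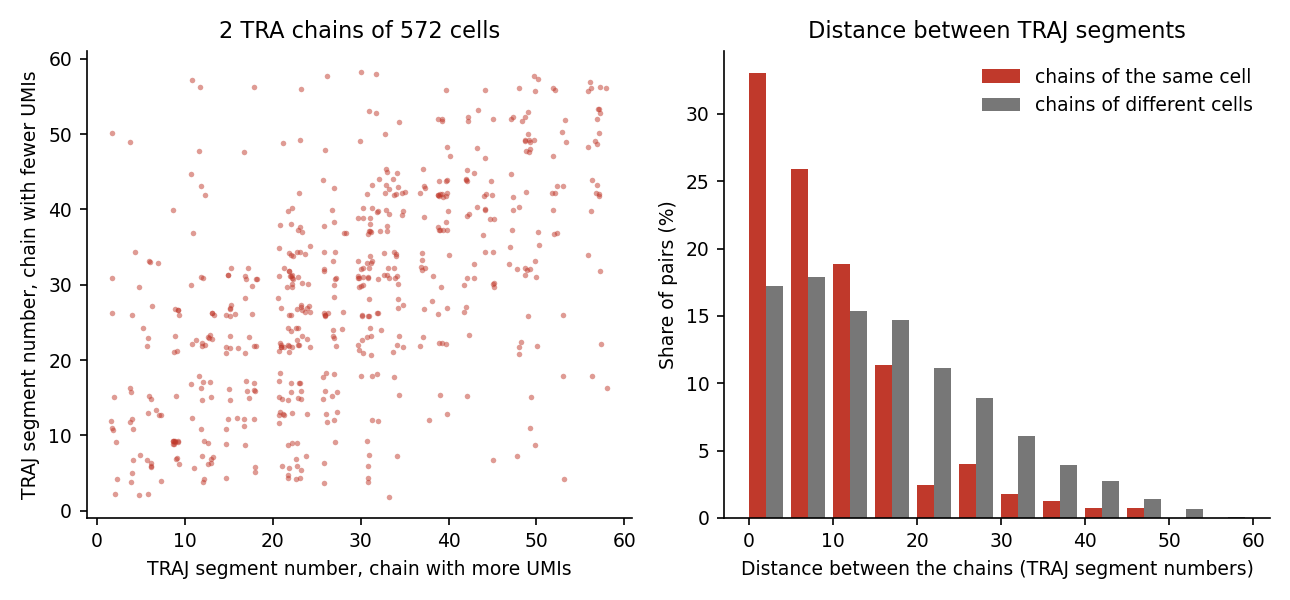
Left, TRAJ segment number of the chain with more UMIs (x axis) against that of the chain with fewer UMIs (y axis), 1 point per 2-TRA cell with a small random offset. Right, share of pairs (y axis, percent) by the distance between the segments (x axis, bins of 5) for the 2 chains of a cell (red) and for chains of different cells of a hashtag (grey). Distances of 0 to 4 make up 33.0% of the red pairs and 17.2% of the grey ones.

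The distance differed with the number of UMIs on the weaker chain. With 1 UMI on the chain with fewer UMIs (122 cells), the median distance was 12, the share over 20 apart was 24.6% and rho was 0.16. With 2 UMIs (118 cells) rho was 0.56, with 3 to 5 UMIs (222 cells) it was 0.72, and with over 5 UMIs (110 cells) it was 0.72 again, with 2.73% of pairs over 20 apart. Thus the pairs resting on a single UMI lay nearer to the pairs between cells than the better supported pairs did. Of the 1-TRA cells that also held a non-productive TRA contig, 1132 had a TRAV and a numbered TRAJ call on it, and there the productive and non-productive segments lay a median of 6 apart with rho of 0.69. By hashtag, rho among 2-TRA cells ran from 0.26 in Hashtag7 (109 cells) to 0.76 in Hashtag6 (44 cells), and by lineage it was 0.61 in more-Cd4, 0.50 in more-Cd8 and 0.63 in the remaining cells.

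The chain with more UMIs had a median of 5 UMIs, and the other chain had 3. The single TRA chain of 1-TRA cells had 4. Chains of 1 UMI made up 9.97% of the first, 21.3% of the second and 11.9% of the single chains. The pair of chains used the same TRAV in 9 cells, the same TRAJ in 42 and the same CDR3 in 1. The junction of the invariant NKT receptor, TRAV11 or TRAV11D joined to TRAJ18, was found in 73 1-TRA cells, and in 2-TRA cells on 2 of the chains with more UMIs and 3 of those with fewer. Chains also seen with another TRB sequence in the library made up 11.7% of the chains with fewer UMIs (95% interval 9.19 to 14.6) and 13% of the single chains of 1-TRA cells (12.1 to 14).

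How often a second chain was found again could be read within clones. In 91 clones with 2 or more cells that had a TRA contig and a 2-TRA cell among them, the first 2-TRA cell by barcode was taken as the reference, which left 245 other cells. Both reference chains were found in 41 of the 215 that carried either (19.1%, 95% interval 14 to 25). Only the chain with more UMIs was found in 78, only the one with fewer in 96, and neither in 30. Most relatives with either chain thus carried only 1 of them. In clone 1, 30 cells carried only the first chain, and they fall together in 1 of these counts by the UMI order of its reference cell. Which of the chains came back more often changed with the setting: with contigs of at least 3 UMIs, 58 relatives had only the chain with more UMIs and 34 only the one with fewer. The share with both was 18.6% in relatives with 1 to 5 TRB UMIs, 19.0% with 6 to 10 and 19.5% with over 10. It was 10.1% in Hashtag7, which held 37 of the clones, and 35.9% in Hashtag8, and without the largest clone the total was 21.5% (15.8 to 28.3).

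**Figure D3:**
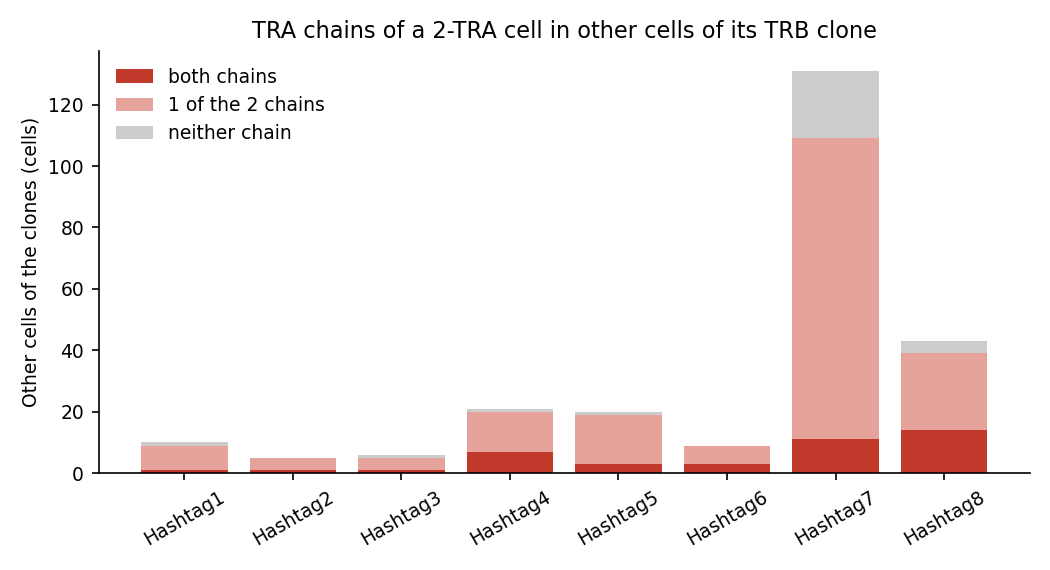
Other cells of TRB clones that hold a 2-TRA cell (y axis, number of cells) by hashtag (x axis), split by whether they carried both, 1 or neither of the reference cell's TRA chains. Hashtag7 holds 131 of the 245 cells, and cells with only 1 of the 2 chains outnumber cells with both in every hashtag.

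Counted by clone, both chains came back together in another cell in 23 of 91 clones and in separate cells in 7. In 31 clones only the chain with more UMIs came back, in 25 only the chain with fewer and in 5 neither. The reference cells of the 23 clones had median UMIs of 5 and 3 on the 2 chains, and those of the 31 had 2 and 1. In 14 of the 56 clones in which 1 chain came back, the other was found with a different TRB sequence elsewhere in the library (25%, 14.4 to 38.4). Among the 22 clones with at least 3 other cells, both chains came back in 12 (8 together and 4 apart) and a single one in 10.

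Depth per cell was compared next. In more-Cd4 cells, median UMIs per hashtag ran from 3200 to 4206 (median 3807) in 1-TRA cells and from 3610 to 5950 (median 4465) in 2-TRA cells. The value was higher in 2-TRA cells in 8 of 8 hashtags, by a median of 0.27 on the log2 scale (0.01 to 0.69; exact sign-flip permutation p = 0.0078, the smallest 8 hashtags can give, adjusted p = 0.070 over the 9 tests). In more-Cd8 cells the medians ran from 4016 to 6779 and from 4388 to 7069, with 5 hashtags higher and 3 lower (median difference 0.13, p = 1.0 by the same permutation test). The difference between the lineages in this contrast, a test added after the values were seen, was -0.23 (-0.85 to -0.02), lower in more-Cd8 in 8 of 8 hashtags (exact permutation p = 0.0078, adjusted p = 0.047 over 12 tests). That p is again the smallest possible and equals the p of the more-Cd4 test. The adjusted values were taken over different families, of 12 and 9 tests, so they do not rank the 2 results.

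A second comparison, chosen after seeing the data, used 1-TRA cells that also held a non-productive TRA contig (1259 cells, 27.0% of 1-TRA cells), in which a further TRA contig had likewise been detected. Those cells had hashtag medians of 3869 to 5529 UMIs in more-Cd4 and 4554 to 7811 in more-Cd8. Against them, 2-TRA cells differed by -0.0048 on the log2 scale in more-Cd4 (3 hashtags higher, 5 lower, exact permutation p = 0.75) and by -0.14 in more-Cd8 (1 higher, 7 lower, p = 0.016, adjusted p = 0.070). Against these cells no order held in more-Cd4 cells.

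**Figure D4:**
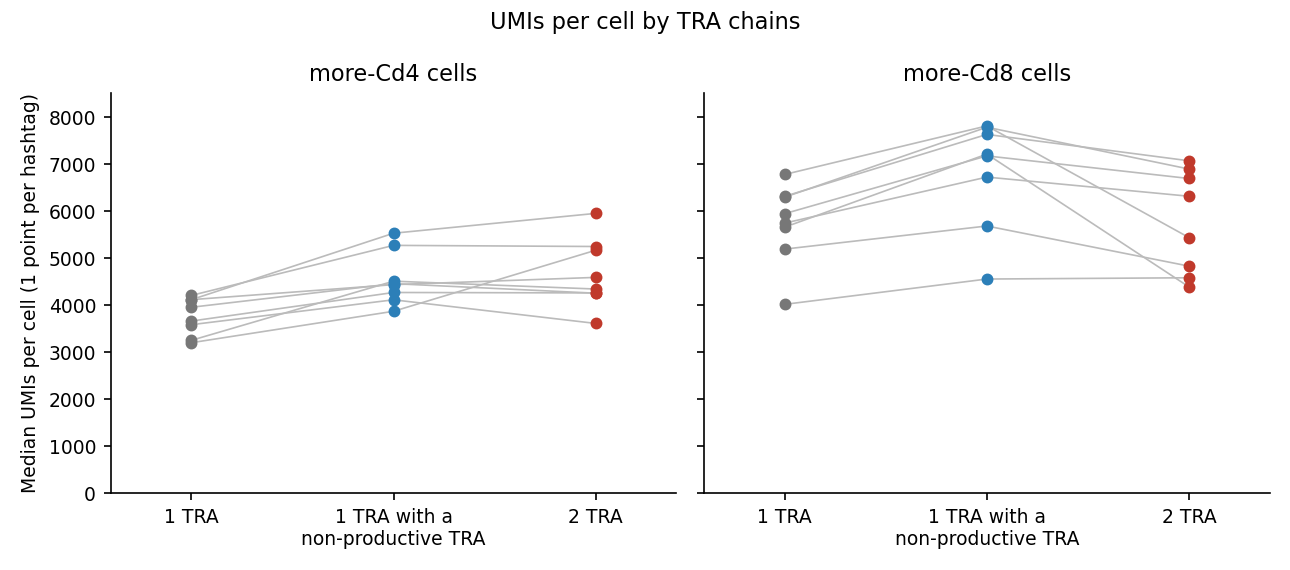
Median UMIs per cell (y axis) for 1-TRA cells (grey), 1-TRA cells that also hold a non-productive TRA contig (blue) and 2-TRA cells (red), 1 point and line per hashtag. In more-Cd4 cells the red points lie above the grey point of the same hashtag in 8 of 8, and no such order holds against the blue points.

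UMIs of the TRB contig, from the receptor library, showed no difference past the threshold. The mean log2 value differed by a median of 0.05 in more-Cd4 cells (5 hashtags higher, 3 lower, exact permutation p = 0.48) and 0.18 in more-Cd8 cells (7 higher, 1 lower, p = 0.12, adjusted p = 0.28).

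Membership in expanded clones was compared next. In more-Cd4 cells, between 4.55% and 54.2% of 1-TRA cells (median 19.1%) and between 0% and 48.1% of 2-TRA cells (median 12.7%) belonged to TRB clones of 2 or more cells. The 0% is 0 of 17 cells in Hashtag2, which allows a share of up to 17.6%. The share was lower in 2-TRA cells in 6 hashtags, equal in 1 and higher in 1, by a median of -5.31 percentage points (-23.6 to 5.21, exact permutation p = 0.062, adjusted p = 0.21). Hashtag7 and Hashtag8 had the most clonal 1-TRA cells, at 54.2% and 41.2%, and their 2-TRA cells were at 48.1% and 17.6%. In more-Cd8 cells the shares were 10.2% to 58.5% and 8.57% to 51.4%, with a median difference of -4.51 points (2 higher, 6 lower, exact permutation p = 0.45).

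Regulatory T cells were counted by Foxp3, their defining transcription factor, after thinning every cell to 1000 UMIs, which left out 294 1-TRA and 25 2-TRA cells over all lineages. In more-Cd4 cells a Foxp3 UMI was found in 10.7% of 1321 1-TRA cells and 7.36% of 163 2-TRA cells. In more-Cd8 cells, which should hold few regulatory cells, the shares were 1.15% and 1.57%. By hashtag the more-Cd4 share ran from 3.20% to 18.6% and from 0% to 19.0%, lower in 2-TRA cells in 6 hashtags and higher in 2 (median difference -3.95 points, exact permutation p = 0.070, adjusted p = 0.21). The 0% values were 0 of 26 cells in Hashtag7 and 0 of 34 in Hashtag8, which allow up to 11.5% and 8.82%. Without thinning the pooled shares were 20.9% and 20.8%, with a median difference of -2.91 points (exact permutation p = 0.81). The share of cells with UMIs of both Cd4 and Cd8 differed by a median of 0.13 points after thinning (4 higher, 4 lower, exact permutation p = 0.58) and by 2.24 points without it (6 higher, 2 lower, p = 0.062).

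Gene expression was tested on UMI counts summed per hashtag and chain class (edgeR quasi-likelihood test with the hashtag as block, Benjamini-Hochberg adjustment over all genes tested). The 2-TRA profiles held 62279 to 257060 UMIs and the 1-TRA profiles 481071 to 1835098, so the precision is set by the 2-TRA cells. In more-Cd4 cells 8 of 6459 genes passed an adjusted p of 0.05 (0.124%), all lower in 2-TRA cells. In more-Cd8 cells 4 of 7969 passed (0.0502%), with 3 higher and 1 lower.

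Ctla2a, a cysteine protease inhibitor found in activated lymphocytes, was lower in more-Cd4 2-TRA cells in 8 of 8 hashtags. Its CPM in 1-TRA cells of Hashtag1 to Hashtag8 were 9.72, 12.6, 87.4, 34.0, 113, 65.5, 368 and 75.8, and in 2-TRA cells they were 0, 0, 0, 16, 71.2, 11.5, 90.7 and 17.3. The groups overlapped across hashtags, and the highest value of both lay in Hashtag7. The log2 fold change was -1.80 (SE 0.303, adjusted p = 0.0075). Without Hashtag7, which held 54.2% of its UMIs, the change was -1.69 with an edgeR adjusted p of 0.18. With 1 cell per clone it was -1.59 (adjusted p = 0.068), with DESeq2 -1.89 (adjusted p = 0.11) and with no replicate block -1.77 (adjusted p = 1.0). In these fits the size of Ctla2a's change moved little while the call was lost. Ctla2a was called in 7 of 10 other settings and in 7 of 8 fits that left out a hashtag.

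Hist1h1c, a linker histone gene, was also lower in 8 of 8 hashtags. Its CPM were 56.9, 88.1, 78.5, 60.7, 97.3, 65.5, 178 and 130 in 1-TRA cells and 12.3, 18.5, 43.7, 24.0, 49.8, 46.0, 74.2 and 40.5 in 2-TRA cells, so only the Hashtag7 value of 2-TRA cells reached into the 1-TRA range. The log2 fold change was -1.30 (SE 0.217, adjusted p = 0.0075). UMIs of Hist1h1c were found in 19.9% of 1-TRA and 17.3% of 2-TRA cells. With 1 cell per clone the change was -1.04 with an adjusted p of 0.33, and with the authors' limit on UMIs per cell it was -0.90 with an adjusted p of 0.40. Hist1h1c was called in 4 of 10 other settings, with changes of -1.54 to -0.90, and in all 8 fits that left out a hashtag. Its largest clone held 17.8% of its UMIs.

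**Figure D5:**
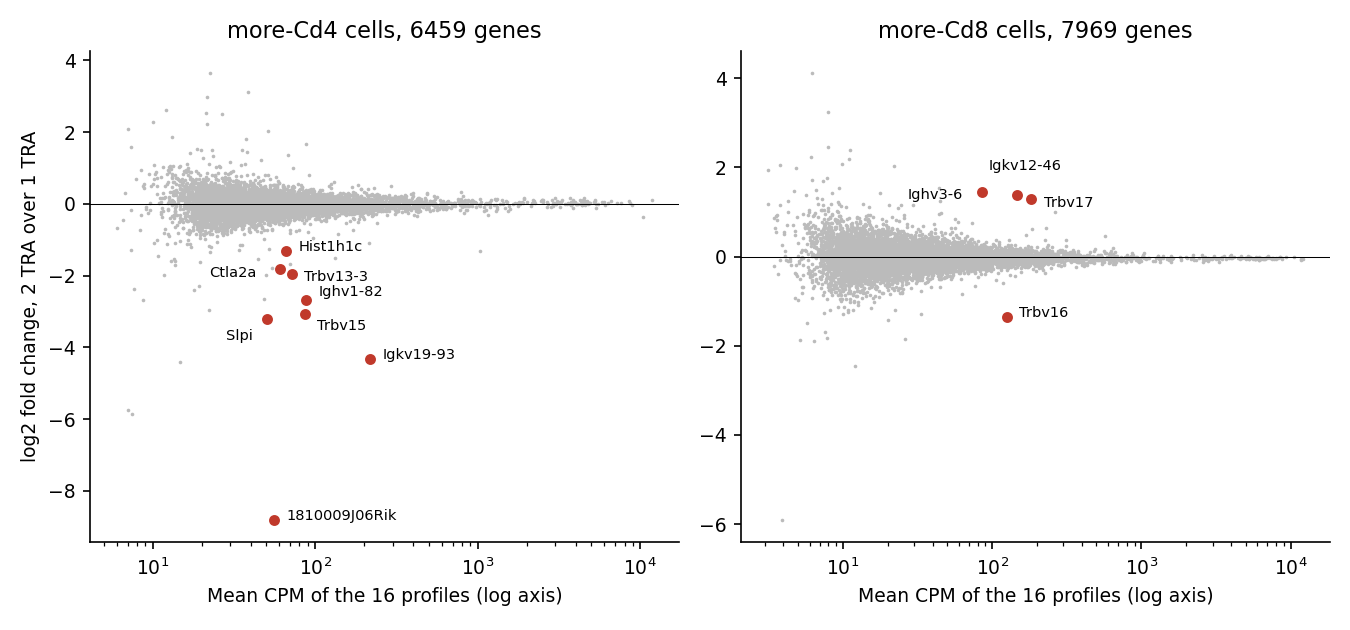
Log2 fold change of 2-TRA over 1-TRA cells (y axis) against the mean CPM of the 16 profiles (x axis, log scale) for each gene tested, with genes at an adjusted p of at most 0.05 in red. The 8 red genes in more-Cd4 cells lie below 0, and in more-Cd8 cells 3 lie above and 1 below; the point of 1810009J06Rik, with 0 UMIs in 2-TRA cells, depends on the fit and is no bound.

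Segments of the Trb locus made up 4 of the 12 calls. Trbv15 fell in more-Cd4 2-TRA cells (log2 fold change -3.06, SE 0.347, adjusted p = 4.93e-05), with 81.9 to 265 CPM in 1-TRA cells and 0 to 52.0 CPM in 2-TRA cells, which do not overlap. Trbv13-3 fell as well (-1.96, SE 0.391, adjusted p = 0.047), and its call was lost on leaving out any of 6 hashtags, with changes of -1.89 to -1.70, while DESeq2 gave -2.60 (adjusted p = 0.0056). In more-Cd8 cells Trbv17 rose (1.30, SE 0.239, adjusted p = 0.010, higher in 7 of 8 hashtags), with 0.96 (adjusted p = 0.10) without Hashtag4 and 1.18 (adjusted p = 0.072) without Hashtag6. Trbv16 fell (-1.35, SE 0.25, adjusted p = 0.010, lower in 8 of 8), with -1.10 (adjusted p = 0.30) for 1 cell per clone and -1.24 (adjusted p = 0.13) without 1-TRA cells of clones that hold a 2-TRA cell, both past no threshold. V segments form families of similar sequence, so how reads were split among them is uncertain.

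A V segment's expression follows the cells that rearranged it, and the contigs count those cells directly. TRBV15 contigs were in 45 of 1372 more-Cd4 1-TRA cells (3.28%) and 2 of 168 2-TRA cells (1.19%), lower in 6 of 8 hashtags (exact permutation p = 0.031, adjusted p = 0.50 over 16 segments). TRBV17 contigs were in 3.05% and 6.49% of more-Cd8 cells (p = 0.031) and TRBV16 contigs in 7.56% and 4.58% (p = 0.047), both with an adjusted p of 0.18 over 19 segments by the same permutation test. No TRBV segment passed the adjusted threshold in either lineage. The most used calls in more-Cd4 cells, TRBV12-2+TRBV13-2 (10.4% and 11.3%) and TRBV3 (10.1% and 9.52%), had shares close to each other in both kinds of cell. In more-Cd8 cells the most used were TRBV12-2+TRBV13-2 (7.46% and 11.5%) and TRBV12-2 (7.80% and 7.63%). The smallest p there was that of TRBV19 (7.41% and 4.58%) and TRBV26 (2.57% and 0.76%), at 0.023 by exact permutation (adjusted p = 0.18).

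The other 6 calls rested on few cells. Igkv19-93 and Ighv1-82, immunoglobulin V segments of B cells, and Slpi, a secreted protease inhibitor, were called lower in more-Cd4 2-TRA cells, but Hashtag8 held 97.8%, 98.3% and 98.5% of their UMIs and 5 cells held 93.9%, 91.9% and 97.9%. Without Hashtag7 the change of Slpi was -3.19, beside -3.22 with it, and its edgeR adjusted p was 0.10. For 1810009J06Rik, the 627 UMIs of 1-TRA cells lay in 9 cells (0.66%), 5 of which held 99.0%, and 2-TRA cells had 0. A gene seen in so few cells sets no lower limit on the fold difference. In more-Cd8 cells Igkv12-46 and Ighv3-6 were called higher, with 98.1% and 99.2% of their UMIs in Hashtag1 and 98.6% and 99.2% in 5 cells. For both, 2-TRA cells were higher in only 2 of 8 hashtags. B cell markers in more-Cd4 cells reached 3180 and 3242 CPM in single hashtags of 1-TRA and 2-TRA cells. Their part in these calls was not tested.

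Genes of the receptor complex gave no call. In more-Cd4 cells none of 16 tested complex and proximal signalling genes was called, and their median log2 fold change was -0.01, beside -0.01 over all genes tested. Cd3e, a signalling subunit of the receptor, differed by -0.05 (95% interval -0.23 to 0.14), Cd247, the zeta chain, by -0.09 (-0.30 to 0.11), Trbc2, a TRB constant gene, by 0.01 (-0.24 to 0.26), Lck, the kinase bound to the coreceptors, by 0.04 (-0.15 to 0.23), and Cd4 itself by -0.09 (-0.31 to 0.12). In more-Cd8 cells 0 of 16 were called with a median of -0.01, beside -0.02 over all genes. Cd3e differed by -0.04 (-0.16 to 0.09), Cd8a by 0.01 (-0.15 to 0.16), Cd8b1 by -0.03 (-0.16 to 0.10) and Zap70, the kinase recruited to the phosphorylated receptor, by 0.22 (0.02 to 0.42, adjusted p = 1.0 by edgeR, higher in 7 of 8 hashtags).

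Genes that track the strength of receptor signalling were not called in either lineage with the settings used for the other results. Of 14 tested in more-Cd4 cells 0 passed, with a median of -0.11, and of 13 in more-Cd8 cells 0 passed, with a median of 0.12. At an unadjusted p of at most 0.05 there were 1 (7.14%, beside 3.50% of all genes) and 3 (23.1%, beside 4.09%). Cd5, an inhibitor whose level is set by self-reactivity in the thymus, differed by 0.30 (0.07 to 0.52) in more-Cd4 cells, higher in 7 of 8 hashtags, and by -0.14 (-0.39 to 0.10) in more-Cd8 cells. The immediate early gene Nr4a1 differed by -0.79 (-1.79 to 0.21) and -0.30 (-1.0 to 0.41). Without Hashtag4, Nr4a1 was called lower in more-Cd4 cells. Tnfrsf9, another gene of this list, was called in more-Cd8 cells with no low-count filter. Egr1 differed by -0.48 (-1.08 to 0.11) and 0.44 (-0.09 to 0.97), and Cd69, an early activation and retention marker, by -0.16 (-0.54 to 0.21) and 0.06 (-0.27 to 0.38).

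Effector and memory genes gave 0 calls of 16 tested in more-Cd4 cells. At an unadjusted p of at most 0.05 there were 6 (37.5%, beside 3.50% of all genes), the median was -0.27, and 5 of the 16 were above 0. Ccl5, a chemokine of effector cells, differed by -1.32 (-1.97 to -0.67, edgeR adjusted p = 0.24), and 72.2% of its UMIs came from Hashtag7. Ifng, the gene of interferon gamma, differed by -2.39 (-3.60 to -1.17, adjusted p = 0.24 by edgeR), on 180 UMIs in 1-TRA and 5 UMIs in 2-TRA cells, with 0 of 8 hashtags higher. Gzmk, a granzyme, differed by -0.74 (-1.42 to -0.06), with 73.3% of its UMIs from Hashtag7. Cd44 differed by -0.04 (-0.42 to 0.34). Other settings called some genes of this list lower: Ccl5 with the authors' cell filter, Ccl5 and Nkg7 without Hashtag8, and Ccl4 without Hashtag5. With no low-count filter Ccl5, Gzmb, Gzmk, Ifng and Nkg7 were called. None of these genes was called in the remaining settings. In more-Cd8 cells 0 of 19 were called, 2 had an unadjusted p of at most 0.05 (10.5%) and the median was -0.03. Xcl1, another gene of this list, was called in more-Cd8 cells without Hashtag7 and with no low-count filter. There Ccl5 differed by -0.09 (-0.30 to 0.13), Ifng by 0.51 (-0.59 to 1.62) and Gzmk by -0.17 (-0.51 to 0.16).

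Lists of other fates gave no call with the settings used for the other results. In more-Cd4 cells these were 11 regulatory genes (median -0.19), 12 of follicular helper cells (0.10), 7 checkpoint genes (0.07), 12 naive and recirculation genes (0.10), 18 interferon response genes (-0.12) and 12 cell cycle genes (0.03). Foxp3 differed by -0.36 (-0.91 to 0.18), Il2ra, the high-affinity interleukin 2 receptor chain, by 0.34 (-0.22 to 0.91), Cxcr5, the follicle homing receptor, by 0.30 (-0.12 to 0.72), Pdcd1, the inhibitory receptor PD-1, by 0.17 (-0.13 to 0.47), and Mki67, a marker of cycling cells, by 0.50 (-0.59 to 1.58). In more-Cd8 cells the medians were 0.40 for 8 regulatory genes, 0.17 for 11 follicular helper genes, 0.21 for 6 checkpoint genes, 0.03 for 12 naive genes, 0.08 for 18 interferon genes and -0.21 for 12 cell cycle genes. At an unadjusted p of at most 0.05 there were 3 regulatory (37.5%), 3 naive (25%), 3 interferon (16.7%), 1 checkpoint (16.7%), 1 cell cycle (8.33%) and 0 follicular helper genes in more-Cd8 cells, and 1 regulatory (9.09%), 2 interferon (11.1%) and 0 of the others in more-Cd4 cells. Ikzf2, the transcription factor Helios, differed by 0.78 in more-Cd8 cells (0.35 to 1.21, edgeR adjusted p = 0.39, higher in 7 of 8 hashtags), and by -0.22 (-0.48 to 0.03) in more-Cd4 cells. Some list members were called in more-Cd8 cells in other settings. The interferon gene Ifit1 was called against 1-TRA cells with a non-productive TRA contig, and the cell cycle gene Top2a without Hashtag2. With no low-count filter Ifit1, Ikzf2, Igfbp4 and Ccnb2 were called.

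The recombination genes Rag1 and Rag2, active in thymocytes, had 0 UMIs in both kinds of cell in both lineages. Trac, the TRA constant gene, is tied to how the cells were chosen and is given as a description: its median CPM was 351 in 1-TRA and 432 in 2-TRA more-Cd4 cells, and 212 and 261 in more-Cd8 cells.

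The expression difference between 2-TRA and 1-TRA cells was not the same in the 2 lineages for 0 of 7227 genes (0%, edgeR interaction test), with 242 at an unadjusted p of at most 0.05. With DESeq2's size factors 1 gene passed, Ctla2a, whose difference was 1.74 on the log2 scale (adjusted p = 0.071 by edgeR with TMM). Ctla2a also passed with no low-count filter, the authors' cell filter, contigs of at least 3 UMIs and the non-productive comparison. It passed without Hashtag5 and without Hashtag6, but not on leaving out any other hashtag. Thinned cells, 1 cell per clone, the removal of cells with both Cd4 and Cd8 UMIs and the removal of 1-TRA relatives gave no such call. Ctla2a was called in more-Cd4 and not in more-Cd8 cells. With the settings used for the other results, that contrast did not pass the threshold.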

How the data were processed

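The deposited lymph node matrix holds counts, UMIs per gene and cell barcode, written by Cell Ranger 3.1.0 per the submitters' processing notes, which name mm10 and GRCm38. The receptor files hold counts of UMIs per contig, per the file headers. Of 13016 barcodes, 12804 passed the filters on genes and mitochondrial UMIs and 10192 had a hashtag. Contigs covered 9473 barcodes, of which 8792 were in the gene matrix. The members, gene lists and named genes were chosen with earlier results of these data known. Named genes were the genes called outside the T cell receptor loci, up to 10 of smallest p in each direction, plus fixed receptor, signalling, fate and recombination genes. Named clones were the 5 largest of 23 with at least 2 cells sharing the same 2 TRA chains. Trb genes were named as calls, and TRBV segments with at least 40 cells in a lineage were tested, a limit set during the analysis.

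The hashtag was the block in every test, since both kinds of cell of a hashtag share tissue, staining and library; a hashtag entered with at least 10 cells of each kind. Profiles were fitted with edgeR 4.0.16 (TMM, filterByExpr, glmQLFit, glmQLFTest) in R 4.3.3, with DESeq2 1.42.0 as an alternative. Shares and depths were tested by exact sign-flip permutation of the mean difference over hashtags in SciPy 1.17.1, and differences are printed as medians. Adjustment was by Benjamini-Hochberg at 0.05. The test code was checked on simulated data. Intervals of 95% for shares are Clopper-Pearson; intervals and limits of 0 (3 counts) cover counting error only. Clones need the same hashtag, so a clone spread over hashtags is counted once in each. TRA positions come from GENCODE M21 (GRCm38). Alternatives changed the normalization, the low-count filter, the block, the cell filter (the authors' deposited text excludes cells over 12500 UMIs), contig support (3 UMIs), thinning and clones. Hashtag UMIs were read from the same matrix. The heart libraries and the deposited clonotype table were not used here.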

Additional observations from a re-analysis of the deposited data

Results flagged for a closer look

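The difference in UMIs per cell between 2-TRA and 1-TRA cells was set against itself in the 2 lineages. The class difference in more-Cd8 minus that in more-Cd4 cells was -0.23 on the log2 scale, lower in 8 of 8 hashtags (exact permutation p = 0.0078, adjusted p = 0.047 over 12 tests). The test was added after the values were seen. In more-Cd4 cells the class difference itself had the same exact permutation p of 0.0078, the smallest 8 hashtags can give. It did not pass in its own family (adjusted p = 0.070 over 9 tests). The families differ, so the 2 adjusted values do not rank the results.

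Single hashtags stood apart from the other 7 in 16 of the 55 groups of values examined. Part of these groups were CPM of the called genes, several of which had most of their UMIs in 1 hashtag. The count therefore has no chance rate to set beside it. TRB contig UMIs of more-Cd8 cells, as a difference in mean log2 value, were -0.38 in Hashtag2 with the next at 0.09, and the 2-TRA value of Hashtag6 was 3.72 with the next at 3.38. The clone share of more-Cd4 2-TRA cells was 48.1% in Hashtag7 with the next at 22.7%. Ctla2a in more-Cd4 1-TRA cells was 368 CPM in Hashtag7 with the next at 113, and Trbv13-3 in 2-TRA cells was 166 CPM in Hashtag2 with the next at 40.5.

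The remaining such values belonged to genes with most of their UMIs in 5 cells. In Hashtag8 more-Cd4 cells, Igkv19-93 had 3204 CPM in 1-TRA and 139 CPM in 2-TRA cells, Ighv1-82 had 1189 CPM and 173 CPM, and Slpi had 723 CPM and 46.2 CPM. In Hashtag5, 1810009J06Rik had 646 CPM in 1-TRA cells. In Hashtag1 more-Cd8 cells, Igkv12-46 had 622 CPM in 1-TRA and 1704 CPM in 2-TRA cells, and Ighv3-6 had 356 CPM and 1012 CPM.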

How the results depend on the processing

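The number of genes called moved with the settings, and so did the number tested. In more-Cd4 cells 6459 genes were tested, against 15349 with no low-count filter, 4562 with no replicate block and 1654 with thinned cells. Against 1-TRA cells with a non-productive contig 3856 were tested. In more-Cd8 cells these numbers were 7969, 15328, 6208, 2884 and 4984. A missing call can thus mean an untested gene: of the 8 more-Cd4 calls, thinned cells tested only Trbv15 and Trbv13-3. In more-Cd4 cells, 8 calls became 3 with DESeq2, 58 with no low-count filter, 1 with no replicate block, 1 with thinned cells, 4 with 1 cell per clone, 5 without cells holding both Cd4 and Cd8 UMIs, 13 with the authors' cell filter and 3 against 1-TRA cells with a non-productive TRA contig, and leaving out each hashtag gave 6 to 12. In more-Cd8 cells, 4 calls became 0 with DESeq2 (159 at an unadjusted p of at most 0.05), 42 with no low-count filter, 0 with no replicate block (232 unadjusted, edgeR), 8 with the authors' cell filter, 2 against 1-TRA cells with a non-productive contig and 2 without 1-TRA cells of clones that hold a 2-TRA cell, and leaving out each hashtag gave 2 to 12. For the difference between lineages, 0 calls became 36 with no filter, 2 with thinned cells, and 1 with each of DESeq2's size factors, the authors' filter, contigs of at least 3 UMIs and the non-productive comparison, and leaving out each hashtag gave 0 to 4. Genes tested for that difference numbered 7227, against 16585 with no filter and 2147 with thinned cells.

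Under DESeq2, 1810009J06Rik changed to 0.44 and Slpi to 0.20 on the log2 scale. Trbv15 passed in 11 of 11 other settings and all 8 fits that left out a hashtag.

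The other signs that turned belonged to depths and shares past no threshold. Against 1-TRA cells with a non-productive contig the UMI difference was -0.0048 in more-Cd4 and -0.14 in more-Cd8 cells, that of TRB UMIs -0.21 and -0.10, and that of the more-Cd8 clone share 1.24 points. With the authors' filter UMIs in more-Cd8 cells differed by -0.018 and TRB UMIs in more-Cd4 cells by -0.017. With 1 cell per clone the lineage difference in the 2-TRA share was 0.21 points (leaving out each hashtag -1.38 to 1.06) and the share with both Cd4 and Cd8 UMIs differed by -0.21, and with contigs of at least 3 UMIs by -0.59 (leaving out each hashtag -0.39 to 0.65). In cells of at least 2000 UMIs and 5 TRB UMIs the more-Cd4 clone share differed by -6.73 points and passed (adjusted p = 0.047, exact permutation). The lineage difference in UMIs was -0.33 with contigs of at least 3 UMIs (p = 0.16) and -0.25 with 1 cell per clone (p = 0.055), both by exact permutation and past no threshold. The comparisons with a non-productive contig, the limits of 2000 UMIs, the settings for differences between lineages and the removal of relatives were chosen after seeing the data. The causes were not tested.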
